A study of Mus musculus with 72 samples.

Results

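The 43 genes described here are interferon-stimulated genes, a set that interferon raises in most cell types, measured in mouse liver. They were chosen by gene symbol from a list, and all 43 symbols were found among the 55573 genes of the count table. By their known roles they form 8 groups. These are transcription factors (Irf7, Irf9, Stat2), nucleic acid sensors (Ifih1, Ddx58, Dhx58, Zbp1), the Ifit family (Ifit1, Ifit2, Ifit3, Ifit3b), the OAS family (Oasl1, Oasl2, Oas1a, Oas1g, Oas2, Oas3), the ISG15 system (Isg15, Usp18, Uba7, Herc6), a PARP group (Parp9, Parp14, Dtx3l), GTPases (Igtp, Irgm1, Irgm2, Iigp1, Ifi47, Gbp2, Gbp3, Gbp7) and other effectors (Rsad2, Cmpk2, Bst2, Xaf1, Rtp4, Trim30a, Samd9l, Lgals3bp, Ifi27, Ifi35, Ifi44).

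Type I interferon binds a receptor that signals through JAK kinases to transcription factors, STAT2 and IRF9 among them, that bind the interferon-stimulated response element (ISRE) in DNA. Interferon gamma, a product of T and NK cells, acts through the gamma-activated site (GAS) in DNA, and it strongly raises the immunity-related GTPases and the guanylate-binding proteins. Cells keep a low level of these genes without infection, called tonic interferon signalling, and gut microbes are among the known sources of that signal. The question for these genes was how their resting level in liver differed with and without microbes, by genotype and over the day.

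Livers came from 72 male C57BL/6 mice, 1 library per mouse. WT mice were Bmal1 fl/fl and LKO mice were Bmal1 fl/fl with Albumin-Cre, so all mice carried the floxed allele and Cre drives deletion in hepatocytes, while other liver cells keep Bmal1, a core activator of the circadian clock. Each genotype was kept either specific pathogen-free (SPF), with a gut microbiota, or germ-free (GF), in isolators that hold no microbes, and the GF line was rederived from the SPF line. The mice were adults in single housing on the same autoclaved chow, in a cycle of equal light and dark. Each of the 4 groups (SPF WT, SPF LKO, GF WT, GF LKO) had 18 mice, with 3 at each of 6 zeitgeber times (ZT, hours after lights on), from ZT2 to ZT22 in steps of 4 h. The tissue was bulk liver, in which fewer cells of a type and less RNA per cell cannot be told apart.

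Promoters of 34 of the 43 genes were found in RefSeq (GRCm38.p6, 250 bases before to 50 after the start). A search of both strands for the ISRE core GAAANNGAAA (on the other strand TTTCNNTTTC) found it in 19 of the 34 genes, or 55.9%, against 3.44% of 32851 promoters of all genes. The GAS core TTCNNNGAA was found in 7 of the 34, or 20.6%, against 8.3% of all promoters. The 34 genes had 38 promoters, and a gene was counted if any of its promoters matched. The shares of all promoters are per promoter, so the units differ. The stretches below are given 5′ to 3′ on the gene's strand, with ISRE cores in capitals. GTPases are shown because they made up most of the genes called lower in LKO than in WT livers of GF mice. Irgm1, a GTPase that was not called between groups, is shown beside them. Isg15 and Rsad2 are shown because they were called for microbial status and for genotype, respectively. A match of letters is a description and not a measured binding site.
Gbp2, chr3:142620578-142620637, plus strand: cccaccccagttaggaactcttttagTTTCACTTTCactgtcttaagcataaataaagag
Gbp3, chr3:142559976-142560035, plus strand: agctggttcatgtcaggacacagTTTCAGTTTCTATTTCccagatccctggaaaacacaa
Gbp7, chr3:142530257-142530316, plus strand: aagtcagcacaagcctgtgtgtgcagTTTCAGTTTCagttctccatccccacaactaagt
Igtp, chr11:58199496-58199555, plus strand: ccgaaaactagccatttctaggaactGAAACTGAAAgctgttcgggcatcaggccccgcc
Irgm2, chr11:58214887-58214946, plus strand: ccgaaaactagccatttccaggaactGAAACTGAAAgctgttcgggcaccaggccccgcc
Irgm1, chr11:48871414-48871473, minus strand: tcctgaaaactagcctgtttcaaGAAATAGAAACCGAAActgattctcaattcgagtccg
Isg15, chr4:156200857-156200916, minus strand: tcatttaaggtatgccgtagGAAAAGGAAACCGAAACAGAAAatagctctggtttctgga
Rsad2, chr12:26456539-26456598, minus strand: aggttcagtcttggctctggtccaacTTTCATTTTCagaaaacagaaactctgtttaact

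The stretches of Isg15, Gbp3 and Irgm1 hold 3, 2 and 2 overlapping cores. Both motifs were found in the promoters of 5 genes, among them the GTPases Igtp, Irgm2 and Gbp7.

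Libraries held 17369927 to 22076113 counts. Levels are given as CPM, read counts relative to the library's total after scaling by edgeR's TMM factors. The targeted gene, listed as Arntl, was counted over the whole transcript, and its ranges with all ZT pooled overlapped between genotypes (SPF WT 0.626 to 39.5 CPM, SPF LKO 8.52 to 29.3, GF WT 0.332 to 41, GF LKO 7.06 to 13.4). The authors reported that Bmal1 was deleted in LKO liver and kept in brain. Clock genes went against the label in 4 libraries, those labelled SPF LKO ZT14 replicate 2, SPF LKO ZT18 replicate 1, SPF WT ZT14 replicate 3 and GF WT ZT6 replicate 3, which are called the 4 doubted libraries below. Defining hepatocyte transcripts were abundant in every library, with a summed level of 9 markers from 58980 to 189400 CPM. Alb, the albumin gene whose promoter drives Cre, was lower in LKO livers, with log2 fold changes of -0.98 ± 0.15 (SE) in SPF mice and -1.70 ± 0.07 (SE) in GF mice.

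One library stood apart for the interferon-stimulated genes themselves. In the library labelled SPF WT ZT6 replicate 3 the 43 genes lay on average 1.03 log2 units above their means over the 72 libraries, while the next highest library, the doubted SPF WT ZT14 replicate 3, lay 0.51 above and the other libraries lay between -0.53 and 0.37. It had the highest value of all 72 libraries for 25 of the 43 genes, including all 8 GTPases, and was at 2-fold or more over the mean of the other 2 libraries of SPF WT ZT6 for 24.

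Its excess was uneven across roles. Gbp2, which encodes a guanylate-binding protein that attacks pathogen vacuoles, had 67.6 CPM there against 4.93 and 7.73 in the other libraries of that time, and Igtp, an immunity-related GTPase, had 169.3 against 22.3 and 23.6. In contrast, Bst2, the virion tether tetherin, had 136 CPM against 107 and 127. The GTPases and Zbp1 thus stood far above the rest of the group, while Bst2 lay within it.

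The same library also had the highest level of 29 of 44 other interferon-stimulated genes. Among these, Cxcl9, a chemokine that responds to interferon gamma, had 180.3 CPM against 9.90 and 13.1, and Tgtp1, another GTPase of that response, had 22.3 against 1.21 and 0.707. Transcripts of T and NK cells moved with it, with a summed level of 9 markers of 26.8 CPM where the other 71 libraries reached at most 6.25, and so did those of dendritic cells, with a summed level of 7 markers of 17.98 CPM against at most 6.94 elsewhere and 5 of the 7 at their highest. All 10 Kupffer cell markers were at their highest there (sum 733 CPM, against at most 520 elsewhere). Ifng was at 0.231 CPM there and at 0 in the other 2 libraries of that time. The part of these cells in the excess was not tested. Counts of genes called between groups that use SPF WT mice are therefore given with and without this library.

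**Figure D1:**
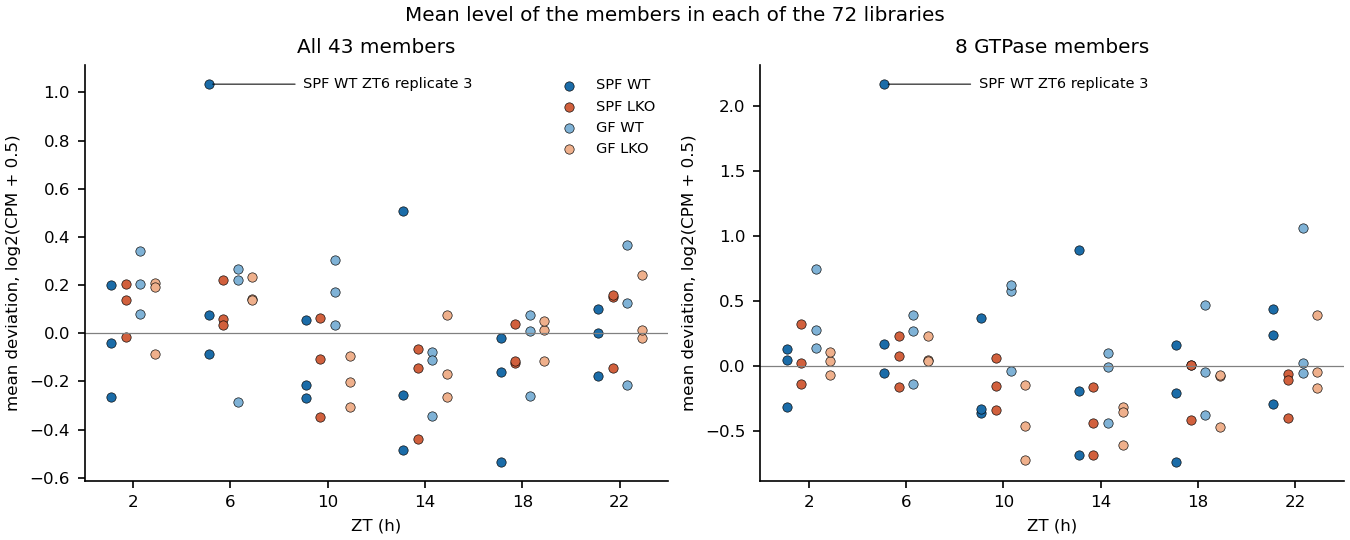
Mean deviation of the 43 genes (left) and of the 8 GTPase genes (right) from each gene's mean over 72 libraries, on the log2(CPM + 0.5) scale, as 1 point per library by ZT (hours after lights on) and group. The library labelled SPF WT ZT6 replicate 3, named in both panels, lies at 1.03 on the left, above every other.

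Resting levels differed widely between the genes. Per kilobase of exon, Bst2 had the highest median over the 72 libraries (153 CPM per kilobase), followed by the GTPase Iigp1 (65.9), Ifi27, a mitochondrial protein gene (56.4), and Lgals3bp, a secreted glycoprotein gene (14.5). At the low end were Oas3 (0.0908), Oas1g (0.164) and Oas2 (0.251), synthetases of the messenger that activates RNase L. Between Parp9 (12.6) and Ifi35 (10.4), the 7 genes from rank 5 to rank 11 lay within a narrow band. Averaged over all 43 genes, the median library deviated from the series mean by -0.06 log2 units in SPF WT, 0.01 in SPF LKO, 0.08 in GF WT and 0.01 in GF LKO mice, and the ranges of all 4 groups overlapped. Without the library apart the SPF WT median was -0.08, and without the doubted library of that group as well it was -0.12.

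The comparison of GF with SPF mice asks whether resting levels need microbes. Tests were edgeR's quasi-likelihood test over all genes with all ZT pooled, and a gene was called at an adjusted p under 0.05. In WT mice 3 of the 42 genes tested were called higher in GF mice (Usp18, Ifi27, Ifih1) and 3 lower (Oas2, Samd9l, Stat2), where 14.2% of all genes tested were called higher and 17.7% lower. In LKO mice 5 of 42 were called higher (Usp18, Isg15, Ifi27, Dtx3l, Parp9) and 3 lower (Oas2, Samd9l, Uba7), where 18.1% of all genes were called higher and 18.4% lower. The member shares, 7.14% in each direction in WT mice and 11.9% and 7.14% in LKO mice, lay below the shares of all genes. Oas1g, with 2 to 17 counts per library, did not pass the filter on low counts in these comparisons. The median log2 fold change of the 42 genes was 0.04 in WT mice and -2e-04 in LKO mice, against -0.02 in both for all genes tested.

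**Figure D2:**
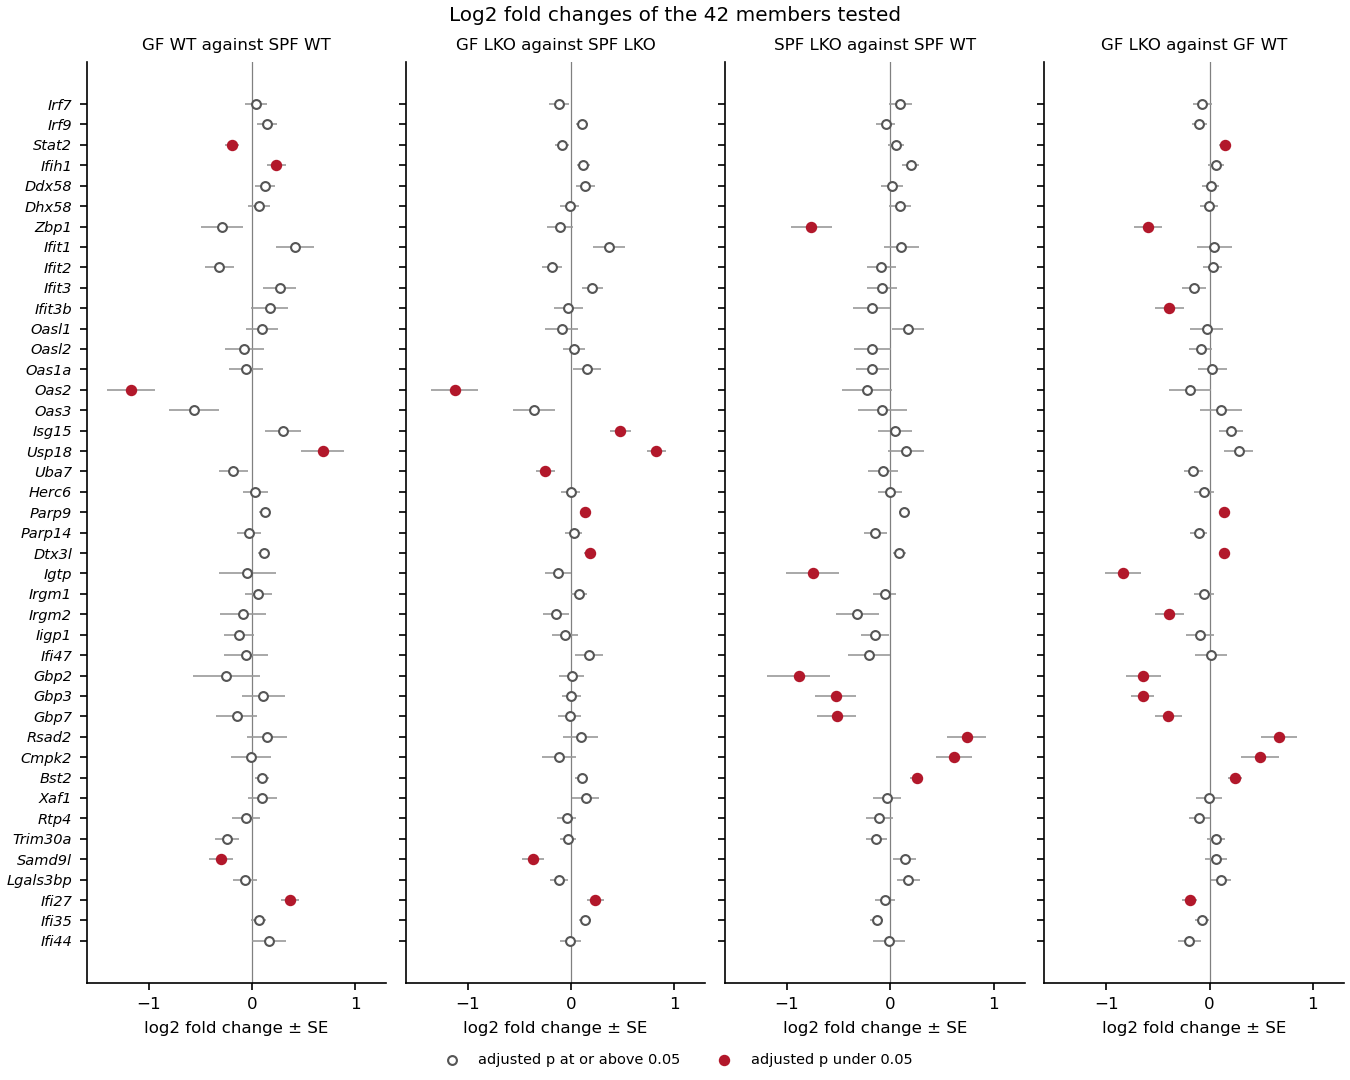
Log2 fold changes of the 42 tested genes in the 4 comparisons between groups, grouped by role, with bars for the standard error and filled points for genes called at an adjusted p under 0.05. Usp18 rises and Oas2 falls in GF mice of both genotypes, and Gbp2, Gbp3, Gbp7, Igtp and Zbp1 lie below 0 in both comparisons of genotype.

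Usp18, the protease that removes ISG15 and damps the interferon receptor, was higher in GF mice of both genotypes. In SPF LKO livers it ran from 3.97 CPM (median 8.01) to 9.02, and in GF LKO livers from 10.3 (median 13.1) to 15.7, so the groups did not overlap, and the log2 fold change was 0.82 ± 0.09 (SE, adjusted p = 1.03e-08). In SPF WT livers it ran from 2.50 (median 5.81) to 15.7 CPM and in GF WT livers from 4.32 (median 9.84) to 23. The WT groups overlapped, but 17 of 18 GF WT libraries lay above the SPF WT median, with a log2 fold change of 0.69 ± 0.21 (SE, adjusted p = 0.0109). GF means were the higher at all 6 ZT in both genotypes.

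Isg15, the ubiquitin-like protein that is conjugated to other proteins in the interferon response, was called in LKO mice only, and the difference between genotypes was not called. It ran from 2.81 CPM (median 5.11) to 7.58 in SPF LKO and from 4.75 (median 6.47) to 8.35 in GF LKO livers, overlapping ranges with a log2 fold change of 0.48 ± 0.10 (SE, adjusted p = 0.000369). In WT mice the medians were 4.13 in SPF and 5.62 in GF livers. Uba7, the enzyme that activates ISG15, moved the other way in LKO mice, from 5.03 to 10.4 CPM (median 7.48) in SPF and 4.90 to 10.1 (median 6.14) in GF livers, a log2 fold change of -0.25 ± 0.09 (SE, adjusted p = 0.0265). That call ended without SPF LKO ZT2 replicate 1 or SPF LKO ZT6 replicate 2, with an adjusted p of up to 0.0533.

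Ifi27 was higher in GF mice of both genotypes. It ran from 53.6 CPM (median 74.7) to 114 in SPF WT and from 78.4 (median 101) to 143 in GF WT livers, with a log2 fold change of 0.37 ± 0.09 (SE, adjusted p = 0.00118). All 18 GF WT libraries lay above the SPF WT median although the ranges overlapped. In LKO mice it ran from 49.6 (median 79.0) to 104.0 and from 70.8 (median 84.4) to 109, with a smaller log2 fold change of 0.24 ± 0.08 (SE, adjusted p = 0.0252).

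Ifih1, the RNA sensor MDA5, ran from 24.3 CPM (median 36.2) to 56 in SPF WT and from 30.9 (median 44.4) to 62.2 in GF WT livers, with a log2 fold change of 0.24 ± 0.09 (SE, adjusted p = 0.0393). The ranges overlapped widely, and the call was lost in 11 of the 36 fits that each left out 1 library, with adjusted p up to 0.0721. In LKO mice Parp9 and Dtx3l, partner genes of an ADP-ribosylating ubiquitin ligase complex, were called higher by 0.14 ± 0.05 and 0.18 ± 0.06 (log2, SE).

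Oas2 was lower in GF mice of both genotypes and had the largest fold change of the 42 genes in either comparison, at a low level of 6 to 79 counts per library. It ran from 0.489 CPM (median 1.79) to 3.75 in SPF WT and from 0.364 (median 0.875) to 1.76 in GF WT livers, with a log2 fold change of -1.17 ± 0.23 (SE, adjusted p = 0.0002). In LKO mice it ran from 0.511 (median 1.68) to 3.14 in SPF and from 0.346 (median 0.735) to 1.46 in GF livers, with a log2 fold change of -1.13 ± 0.23 (SE, adjusted p = 0.000207). The ranges overlapped in both genotypes, and GF means were the lower at all 6 ZT in both. The other OAS genes tested were not called in either comparison.

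Samd9l, a cytosolic restriction factor of viral translation, was also lower in GF mice. It ran from 11.8 CPM (median 20.2) to 29.6 in SPF LKO and from 11 (median 16.2) to 21.8 in GF LKO livers, with a log2 fold change of -0.37 ± 0.11 (SE, adjusted p = 0.00655). In WT mice it ran from 11.8 (median 18.4) to 31.1 and from 10.7 (median 14.8) to 27.1, with a log2 fold change of -0.30 ± 0.11 (SE, adjusted p = 0.0419). The ranges overlapped, and the call in WT mice was lost in 19 of 36 fits that left out 1 library. Stat2, the partner of IRF9 in the type I signal, was called lower in GF WT mice, by -0.19 ± 0.07 (log2, SE), and this call ended without SPF WT ZT2 replicate 1 or SPF WT ZT14 replicate 3 (adjusted p up to 0.0593).

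**Figure D3:**
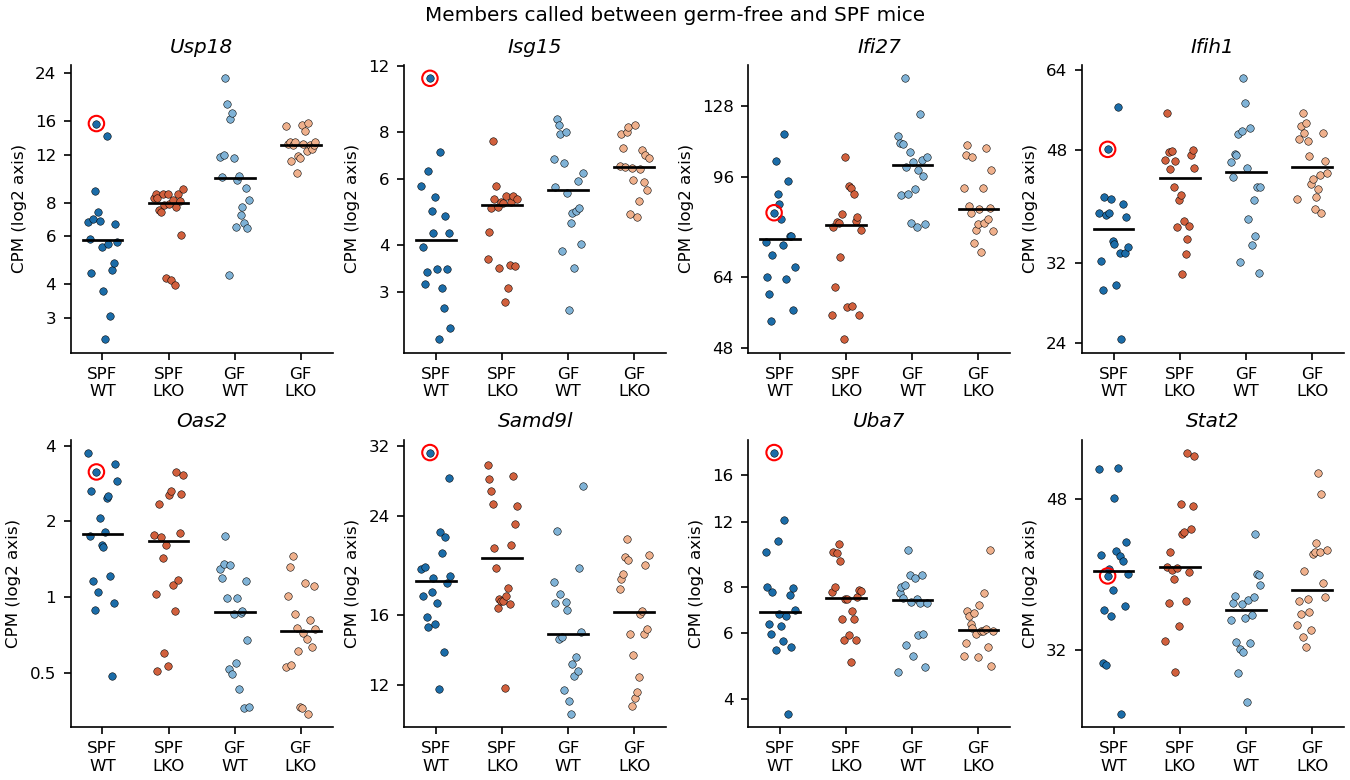
CPM of 8 genes in every library by group, with lines at the medians and the library labelled SPF WT ZT6 replicate 3 circled in red. Usp18 in GF LKO livers (10.3 to 15.7 CPM) lies above all SPF LKO libraries (3.97 to 9.02), while the other panels overlap between SPF and GF mice.

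Without the library labelled SPF WT ZT6 replicate 3, 8 of 42 genes were called higher in GF WT than in SPF WT mice and 2 lower (Oas2 and Stat2), against 13.4% and 15.2% of all genes. The log2 fold changes were then 0.82 ± 0.20 (SE) for Usp18, 0.38 ± 0.09 for Ifi27 and -1.11 ± 0.23 for Oas2. The 5 added were Ifit1, Ifit3, Isg15, Parp9 and Gbp3, and Samd9l was no longer called (adjusted p = 0.0918). Without it and the 4 doubted libraries, 14 of 42 genes were called higher and 1 lower (Oas2), against 13.1% and 16% of all genes. The median log2 fold change of the 42 genes was then 0.18. The Ifit proteins bind foreign RNA, and in this comparison Ifit1 had a log2 fold change of 0.60 ± 0.18 (SE) and Ifit3 0.51 ± 0.12, beside 0.99 ± 0.18 for Usp18 and 0.53 ± 0.15 for Isg15. The other genes called higher were Irf9, Ifih1, Ddx58, Ifit3b, Parp9, Dtx3l, Igtp, Gbp3, Ifi27 and Ifi44. These libraries were set aside after their values were seen, and the library apart was set aside for its level of these genes. The doubted SPF WT library was the next highest for these genes, so leaving both out favours higher values in GF than in SPF WT mice.

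Some markers of myeloid cells moved with microbial status. Of 7 monocyte and neutrophil markers 3 were tested, and all 3 (Ccr2, S100a8, S100a9) were lower in GF mice of both genotypes, while Chil3 and Ly6g had a median of 0 in every group. Of all genes tested, 17.7% were called lower in GF mice among WT and 18.4% among LKO mice. Their summed level ran from 1.70 to 23.3 CPM in SPF WT, 1.95 to 8.37 in SPF LKO, 0.747 to 7.63 in GF WT and 1.51 to 5.84 in GF LKO livers. Clec9a, 1 of 7 dendritic cell markers, was lower in GF mice of both genotypes. The 7 had summed medians of 4.40 CPM in SPF WT, 4.11 in SPF LKO, 2.81 in GF WT and 3.12 in GF LKO livers. The 10 markers of Kupffer cells had summed medians of 390.0, 344, 370.4 and 309 CPM in the same order. The part of these cells in the results was not tested.

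The comparison of LKO with WT mice asks how these genes differed by genotype. Only LKO mice carried Albumin-Cre, so effects of Cre and of Bmal1 loss cannot be told apart. In GF mice 6 of 42 genes were called higher in LKO livers (Rsad2, Cmpk2, Bst2, Stat2, Dtx3l, Parp9) and 8 lower (Igtp, Gbp3, Gbp2, Zbp1, Gbp7, Irgm2, Ifit3b, Ifi27), where 15.6% of all genes tested were called higher and 15.2% lower. In SPF mice 3 of 42 were called higher (Rsad2, Cmpk2, Bst2) and 5 lower (Gbp2, Zbp1, Igtp, Gbp3, Gbp7), where 11.6% of all genes were called higher and 11.5% lower. The member shares were 14.3% and 19% in GF mice and 7.14% and 11.9% in SPF mice. The median log2 fold change of the 42 genes was -0.04 in GF and -0.05 in SPF mice, against 0.01 and -0.01 for all genes tested.

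GTPases made up most of the genes that were called lower in LKO livers of GF mice. Of the 8 tested, 5 were called lower in GF mice and 0 higher, with a median log2 fold change of -0.39. Igtp ran from 15 CPM (median 27.4) to 73 in GF WT and from 9.15 (median 18.5) to 31.7 in GF LKO livers, with a log2 fold change of -0.84 ± 0.17 (SE, adjusted p = 0.00018). LKO means were the lower at all 6 ZT, and 16 of 18 GF WT libraries lay above the GF LKO median. Part of its count is uncertain, since Igtp and Irgm2 overlap on chromosome 11 and reads that overlap more than 1 gene were not counted.

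Gbp3 ran from 7.06 CPM (median 9.80) to 17.1 in GF WT and from 4.93 (median 6.71) to 10.4 in GF LKO livers. All 18 GF WT libraries lay above the GF LKO median, and the log2 fold change was -0.65 ± 0.11 (SE, adjusted p = 2.21e-05). Gbp2 ran from 4.59 (median 7.61) to 24.2 in GF WT and from 3.12 (median 5.45) to 10.6 in GF LKO livers, with a log2 fold change of -0.64 ± 0.17 (SE, adjusted p = 0.00383). The ranges of both genes overlapped, and LKO means were the lower at all 6 ZT. Gbp7 and Irgm2 were lower by -0.40 ± 0.13 and -0.39 ± 0.14 (log2, SE), and the call of Irgm2 ended without GF WT ZT2 replicate 3 or GF WT ZT22 replicate 3 (adjusted p up to 0.063). The calls of Igtp, Gbp2, Gbp3 and Gbp7 in GF mice held in all 36 fits that left out 1 library.

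In SPF mice the GTPase calls rested on 1 library. With all libraries, Gbp2 ran from 2.97 CPM (median 6.52) to 67.6 in SPF WT and from 3.52 (median 5.04) to 9.02 in SPF LKO livers, with a log2 fold change of -0.89 ± 0.30 (SE, adjusted p = 0.0308). Igtp ran from 11.2 (median 22.1) to 169.3 and from 13.8 (median 18.7) to 27.4, with a log2 fold change of -0.75 ± 0.25 (SE, adjusted p = 0.0276). Without the library labelled SPF WT ZT6 replicate 3 the log2 fold changes were -0.28 ± 0.17 for Gbp2 (adjusted p = 0.239), -0.33 ± 0.16 for Igtp (0.129), -0.26 ± 0.13 for Gbp3 (0.141) and -0.29 ± 0.13 for Gbp7 (0.114). None of the 4 was then called. The calls of Gbp2 and Igtp ended in no other of the 36 fits that left out 1 library, while those of Gbp3 and Gbp7 ended in 14 and 7 of the 36.

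Zbp1, a sensor of Z-form nucleic acid that triggers cell death, was lower in LKO livers under both conditions. It ran from 2.83 CPM (median 5.60) to 23.9 in SPF WT and from 2.28 (median 3.78) to 6.03 in SPF LKO livers, with a log2 fold change of -0.76 ± 0.20 (SE, adjusted p = 0.00432). Without the library apart it was -0.51 ± 0.14 (adjusted p = 0.00647). In GF mice it ran from 2.27 (median 5.55) to 7.83 in WT and from 2.15 (median 3.44) to 5.94 in LKO livers, with a log2 fold change of -0.60 ± 0.14 (SE, adjusted p = 0.000693). The ranges overlapped, and LKO means were the lower at all 6 ZT in both conditions.

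Rsad2, the antiviral enzyme viperin, and Cmpk2, its neighbour in the genome and a mitochondrial nucleotide kinase, were higher in LKO livers. Rsad2 ran from 4.99 CPM (median 7.92) to 18.4 in SPF WT and from 4.52 (median 15.6) to 27.6 in SPF LKO livers, with a log2 fold change of 0.74 ± 0.19 (SE, adjusted p = 0.00349). In GF mice it ran from 5.03 (median 10.1) to 25.2 in WT and from 9.26 (median 16.4) to 27 in LKO livers, with a log2 fold change of 0.67 ± 0.18 (SE, adjusted p = 0.00302). The ranges overlapped, and LKO means were the higher at all 6 ZT in both conditions.

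Cmpk2 ran from 2.40 CPM (median 4.85) to 9.61 in SPF WT and from 2.48 (median 8.79) to 14.1 in SPF LKO livers, with a log2 fold change of 0.61 ± 0.18 (SE, adjusted p = 0.00895). In GF mice the log2 fold change was 0.49 ± 0.18 (SE, adjusted p = 0.0351), a call that was lost in 9 of 36 fits that left out 1 library. Bst2 ran from 88.6 (median 125) to 157 in SPF WT and from 114 (median 144.5) to 189 in SPF LKO livers, with log2 fold changes of 0.25 ± 0.07 (SE) in SPF and 0.25 ± 0.06 in GF mice. The smaller differences in GF mice were Ifit3b (-0.39 ± 0.14), Ifi27 (-0.19 ± 0.07), Stat2 (0.15 ± 0.06), Parp9 (0.14 ± 0.04) and Dtx3l (0.14 ± 0.05). Ifit3b and Ifit3 are near-identical copies and Parp9 and Dtx3l overlap, so their counts are uncertain. In fits that left out 1 library, the calls of Stat2, Ifi27, Dtx3l and Ifit3b were lost in 15, 6, 5 and 2 of 36, and that of Parp9 in 0.

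**Figure D4:**
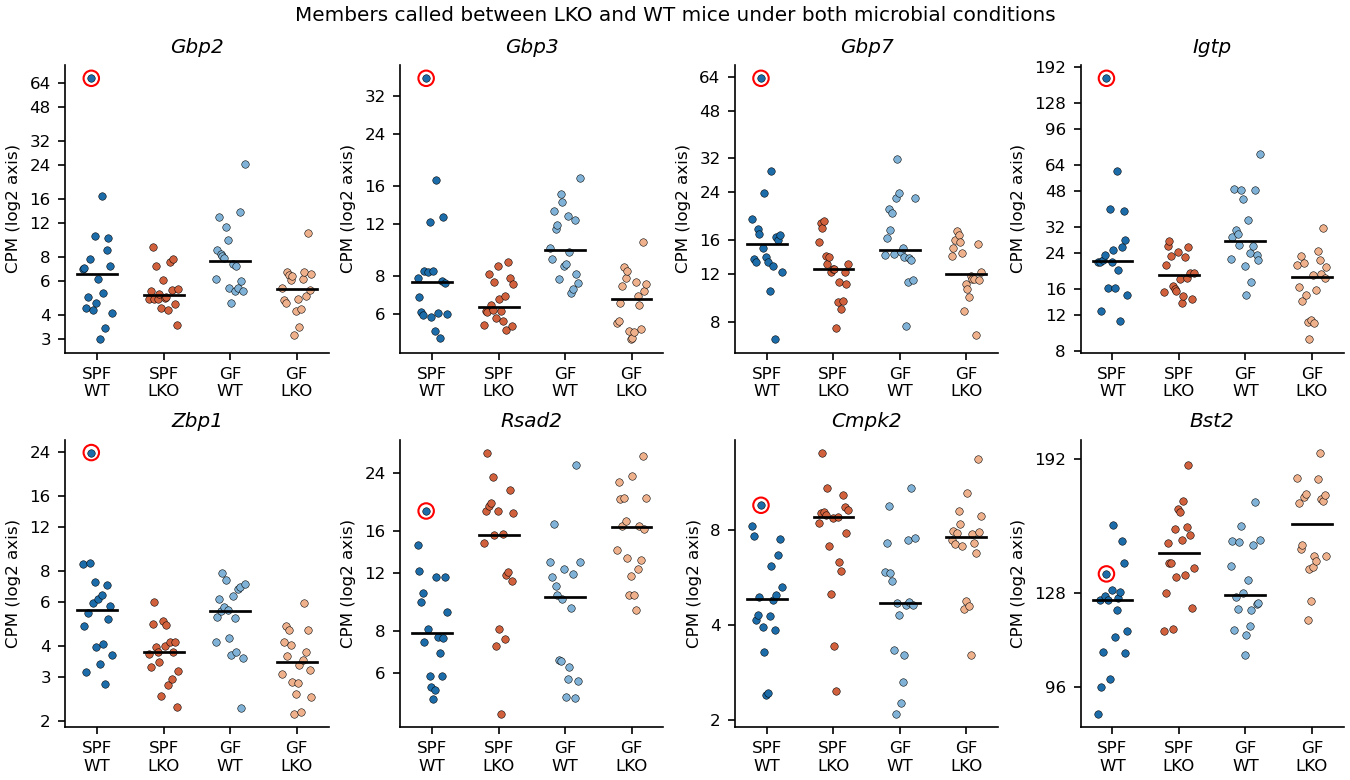
CPM of 8 genes in every library by group, with lines at the medians and the library labelled SPF WT ZT6 replicate 3 circled in red. The circled library is the highest for Gbp2, Gbp3, Gbp7, Igtp and Zbp1, and the medians of these 5 genes are lower, and those of Rsad2, Cmpk2 and Bst2 higher, in LKO than in WT mice under both conditions.

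Without the library labelled SPF WT ZT6 replicate 3, 5 of 42 genes were called higher in LKO than in WT livers of SPF mice and 1 lower (Zbp1), against 11.1% and 10.9% of all genes. Rsad2, Cmpk2 and Bst2 then had log2 fold changes of 0.83 ± 0.18 (SE), 0.69 ± 0.17 and 0.27 ± 0.07. Without that library and the 4 doubted libraries, in SPF mice 8 of 42 genes were called higher and 1 lower in LKO than in WT livers, against 13.7% of all genes in each direction. The 8 were Rsad2 (0.97 ± 0.16, log2 fold change with SE), Cmpk2 (0.79 ± 0.16), Usp18 (0.48 ± 0.12), Ifih1, Lgals3bp, Samd9l, Bst2 and Parp9, and the 1 was Zbp1 (-0.52 ± 0.15). The median log2 fold change of the 42 genes was then 0.13. The sign of that median thus depended on the libraries kept.

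Markers of several liver cell types moved with genotype. The summed level of 9 hepatocyte markers, Alb among them, had medians of 124300 CPM in SPF WT, 74850 in SPF LKO, 158300 in GF WT and 79970 in GF LKO livers. Of the 9, Alb was called lower and Ass1 higher in both comparisons, and Cyp2e1 and Ttr lower in GF mice. The 5 cholangiocyte markers had summed medians of 53.3, 70.3, 44.45 and 91.03 CPM in the same order, with Sox9 called higher in LKO livers in both comparisons and Spp1 in GF mice. For Kupffer cells, the liver's resident macrophages, the markers were lower. Of the 10, 6 were called lower in SPF LKO mice (C1qa, C1qb, Cd5l, Clec4f, Timd4, Vsig4) and 5 in GF LKO mice (C1qa, C1qc, Csf1r, Marco, Timd4), with median log2 fold changes of -0.26 and -0.23. Of all genes tested, 11.5% and 15.2% were called lower. These markers were fitted with all libraries, and SPF WT ZT6 replicate 3 was the highest for all 10. Their summed level ran from 285 to 733 CPM (median 390.0) in SPF WT, 266 to 435 (median 344) in SPF LKO, 244 to 467 (median 370.4) in GF WT and 193 to 404 (median 309) in GF LKO livers. T and NK cell markers had summed medians of 3.29, 2.52, 3.02 and 2.22 CPM in the same order. The part of these cells in the GTPase and Zbp1 results was not tested.

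The test of the difference between the genotype effects in GF and SPF mice, which is also that between the microbial effects in LKO and WT mice, called 0 of 43 genes by edgeR and 0 by DESeq2, where 0.119% of all genes were called more positive and 0.319% more negative. None of the 43 had an unadjusted p under 0.05, and the log2 differences ran from -0.22 to 0.24. Without the library apart 2 genes had an unadjusted p under 0.05 and 0 were called, and the log2 difference of Gbp2 turned from 0.24 ± 0.36 (SE) to -0.36 ± 0.25. Without it and the doubted libraries 9 had an unadjusted p under 0.05, the lowest adjusted p was 0.274, for Gbp3, with a log2 difference of -0.52 ± 0.16 (SE), and 0 were called.

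Variation over the day was tested within each group, with 3 libraries at each of 6 ZT. Where values at a pair of times are listed for a gene below, the times are those of its highest and lowest mean. Times picked in this way from the same values favour a lack of overlap, which is therefore no added support for a call. In SPF WT mice 0 of 43 genes were called by edgeR, where 7.06% of all genes were called, and 8 had an unadjusted p under 0.05. DESeq2 called 3 (Dtx3l, Iigp1, Zbp1), where it called 15.1% of all genes. In SPF LKO mice 7 of 43 were called (Ddx58, Gbp7, Ifih1, Iigp1, Parp14, Samd9l, Uba7), where 5.3% of all genes were called. In GF WT mice 3 of 43 were called (Cmpk2, Gbp7, Samd9l), where 13.6% of all genes were called, and in GF LKO mice 13 of 43, or 30.2%, where 26.7% of all genes were called. The 13 were Bst2, Dtx3l, Gbp7, Herc6, Ifi47, Igtp, Iigp1, Irgm1, Irgm2, Oasl1, Samd9l, Stat2 and Xaf1. Of the 7 in SPF LKO mice, 5 had their highest mean at ZT2 and 2 at ZT6, and their lowest means were at ZT14 or ZT18.

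Samd9l was called in 3 of the 4 groups. In GF LKO livers it had 20.3, 21.8 and 19.99 CPM at ZT6 and 11.4, 11.7 and 12.4 at ZT14, values that did not overlap (adjusted p for ZT = 0.000528). In SPF LKO livers it had 27.9, 26.5 and 29.6 at ZT2 and 16.9, 11.8 and 17.3 at ZT14 (adjusted p = 0.00826). In GF WT livers it had 19.4, 14.9 and 27.1 at ZT22 and 11.3, 10.7 and 13.1 at ZT14 (adjusted p = 0.0355). The lowest mean was thus at ZT14, early in the dark phase, in these 3 groups, and the highest means fell at different ZT.

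Iigp1, a GTPase that coats pathogen vacuoles, had 525, 586 and 579 CPM at ZT6 and 240.2, 260.4 and 180.0 at ZT18 in GF LKO livers, a 2.48-fold difference of means (adjusted p = 0.000555). In SPF LKO livers it had 581, 484 and 415 at ZT6 and 340.2, 254 and 325 at ZT18 (adjusted p = 0.0498). The values at the 2 times did not overlap in either group. In GF WT livers its means ran from 281 at ZT18 to 497 at ZT10, and it was not called by edgeR (adjusted p = 0.0774), while DESeq2 and edgeR without the doubted GF WT library called it. In SPF WT livers the library apart alone had 1132 at ZT6, beside 459 and 466.

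Ifi47, another immunity-related GTPase, had 34.8, 49.9 and 34.2 CPM at ZT6 and 20.9, 16.4 and 16.9 at ZT14 in GF LKO livers (adjusted p = 0.0023). Gbp7 was called in 3 groups, and in GF WT livers it had 22.9, 32 and 23.8 at ZT10 and 7.74, 11.2 and 13.8 at ZT18 (adjusted p = 0.0213). In SPF LKO livers it had 18.5, 17.7 and 15.8 at ZT2 and 12.5, 7.61 and 9.47 at ZT14 (adjusted p = 0.0246). Each pair of times listed, picked as the highest and lowest mean, did not overlap.

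The 3 smallest p for ZT in SPF WT mice belonged to Ifi47, Dtx3l and Gbp2, none of them called by edgeR with all libraries (adjusted p 0.143, 0.146 and 0.172). DESeq2 called Dtx3l. Ifi47 was called by edgeR without the doubted library of the group, and also without that and SPF WT ZT6 replicate 3, but not without the latter alone (adjusted p = 0.391). Ifi47 had 25, 33.9 and 113.5 CPM at ZT6 and 15.5, 21.2 and 14.9 at ZT10, and Gbp2 had 4.93, 7.73 and 67.6 at ZT6 and 5.17, 3.41 and 8.69 at ZT18, and the library labelled SPF WT ZT6 replicate 3 was the highest for both. Dtx3l had 68.7, 64.1 and 79.9 at ZT18 and 55.2, 52.4 and 49.6 at ZT2, without overlap.

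In SPF LKO livers Ddx58, the RNA sensor RIG-I, had 35.7, 32.1 and 29.8 CPM at ZT2 and 20.8, 13.8 and 21.1 at ZT14 (adjusted p = 0.0116). Of these, 13.8 belongs to the doubted SPF LKO ZT14 replicate 2. Without the doubted libraries 6 genes were called in SPF LKO mice, Ddx58, Gbp7, Iigp1, Parp14 and Samd9l among them, where 5.69% of all genes were called. Cmpk2 in GF WT livers had 10.9, 4.65 and 7.57 CPM at ZT22 and 2.26, 2.64 and 3.21 at ZT14 (adjusted p = 0.027).

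**Figure D5:**
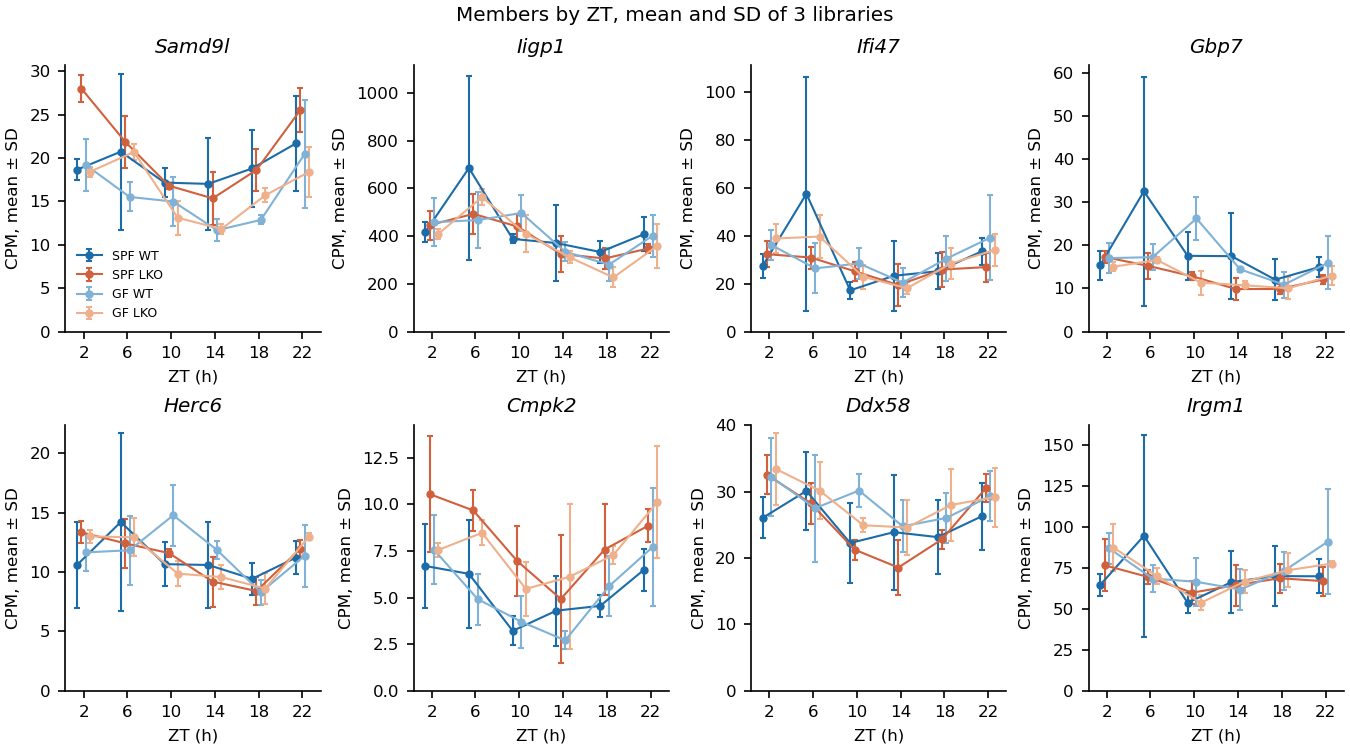
Mean CPM of 8 genes by ZT (hours after lights on) in the 4 groups, with bars for the SD of 3 libraries. The mean of Samd9l is lowest at ZT14 in all 4 groups, and the wide bars of SPF WT livers at ZT6 hold the library labelled SPF WT ZT6 replicate 3 (1132 CPM for Iigp1, 113.5 for Ifi47).

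Whether the daily pattern differed between groups was tested for 4 pairs, and 0 of 43 genes were called by edgeR in any. For GF WT against SPF WT 0.0071% of all genes were called, and 2 of the 43 had an unadjusted p under 0.05. For GF LKO against SPF LKO the values were 0.0492% and 4, for SPF LKO against SPF WT 0.305% and 0, and for GF LKO against GF WT 3.48% and 6. DESeq2 called 0, 1, 0 and 2 of the 43 in the same order, where it called 0.326%, 2.26%, 1.36% and 6.5% of all genes. Without the library apart edgeR also called 0 in both pairs that use SPF WT mice. A gene called in 1 group and not in another is thus not shown to differ between them.

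Other genes of the pathway, from lists that were written with earlier results known, gave the context. Their values are from fits with all libraries. The library labelled SPF WT ZT6 replicate 3, the highest for 29 of 44 other interferon-stimulated genes, was thus included. None of 9 interferon genes passed the filter on low counts. Of 9 receptor and kinase genes 8 were tested, and Ifnar2, a chain of the type I receptor, was called higher in all 4 comparisons (log2 fold changes 0.16 in GF WT against SPF WT, 0.19 in GF LKO against SPF LKO, 0.19 in SPF LKO against SPF WT and 0.20 in GF LKO against GF WT). Ifnar1, its partner chain, was called lower in LKO than in WT livers of GF mice (-0.22). Of 13 transducers and IRFs tested, Irf2, a repressor of interferon responses, was called lower in all 4 comparisons (-0.26, -0.33, -0.46 and -0.54 in that order), and Irf1, an activator induced by interferon gamma, was lower in LKO than in WT livers of GF mice (-0.41 ± 0.15, SE). Of 44 other interferon-stimulated genes, all tested, 2 were higher and 9 lower in GF WT than in SPF WT mice (14.2% and 17.7% of all genes) and 4 and 10 in GF LKO than in SPF LKO (18.1% and 18.4%). They were 2 and 4 in SPF LKO than in SPF WT (11.6% and 11.5%), and 3 and 5 in GF LKO than in GF WT (15.6% and 15.2%). Among them Gbp8 was lower in GF mice by -0.76 in WT and -0.55 in LKO, Nlrc5, an activator of MHC class I genes, was lower in all 4 comparisons (-0.47, -0.47, -0.76 and -0.77), and Ly6e, a membrane protein that blocks viral fusion, was higher in LKO mice by 1.35 in SPF and 1.59 in GF mice.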

How the data were processed

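Counts of reads per gene, without normalization, were deposited by the authors for 72 liver libraries. The authors used STAR 2.6.1b to align the single-end reads to mm10 and featureCounts 2.0.0 to count them. Strand was not used, and reads with several alignments or in more than 1 gene were not counted, so overlapping, antisense and near-identical genes are uncertain. Libraries were grouped by their labels, and no library was removed from the results unless stated. The 43 genes, the lists, the 4 doubted libraries and the tests were chosen with earlier results of these data known.

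Tests used edgeR 4.0.16 (TMM, filterByExpr, quasi-likelihood test) in R 4.3.3, with Benjamini-Hochberg adjustment over all genes tested and a threshold of 0.05. Comparisons of 2 groups used their 36 libraries with ZT pooled, the difference of effects on all 72, and ZT within 18. DESeq2 1.42.0 was the other count test. Replicates were separate mice. Mean deviations used log2 of CPM plus 0.5. The tests were tested on simulated data. Values in full were given for genes called in both comparisons of microbial status, the 5 largest called fold changes in each comparison and the 3 smallest p for ZT in each group. Genes outside these rules were named after their values were seen. Alternatives changed the tool, scaling, filter, ZT term, replicate block and libraries. Promoters came from RefSeq. Plots were drawn in Python 3.11.15 with matplotlib 3.10.9.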

Additional observations from a re-analysis of the deposited data

How the results depend on the processing

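Counts of called genes are given as higher and lower. Without the 4 doubted libraries 5 and 1 genes were called in GF WT against SPF WT, and 5 and 2 in SPF LKO against SPF WT (14.2% and 17.9%, and 13.9% and 14% of all genes). ZT calls were then 4 in SPF WT and 11 in GF WT (8.75% and 18% of all genes), and 1 gene was called for the ZT difference of GF LKO against GF WT (4.04% of all genes). Without the library labelled SPF WT ZT6 replicate 3 as well, an alternative chosen after seeing the data, these were 14 and 1, 8 and 1, and 2 ZT calls in SPF WT. The shares of all genes were 13.1% and 16%, 13.7% in each direction, and 7.35%. The cause was not tested.

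DESeq2 called 3 genes lower in SPF LKO against SPF WT, where it called 12.4% of all genes lower. For ZT it called 3 in SPF WT, 11 in SPF LKO and 10 in GF WT, and for the ZT difference 1 in GF LKO against SPF LKO and 2 in GF LKO against GF WT. ZT as a covariate gave 8 higher in GF LKO against SPF LKO and 2 lower in SPF LKO against SPF WT (21.1% and 13.9% of all genes). A cosine and sine of ZT gave 2, 17 and 10 calls in SPF WT, SPF LKO and GF WT. Without the filter on low counts 1 gene was lower in GF WT against SPF WT, 3 lower in SPF LKO against SPF WT and 3 higher in GF LKO against GF WT (7.36%, 4.06% and 6.55% of all genes). ZT calls were then 25 in SPF WT, 20 in SPF LKO, 19 in GF WT and 22 in GF LKO. ZT differences were then called for 15 genes in GF WT against SPF WT, 6 in GF LKO against SPF LKO, 8 in SPF LKO against SPF WT and 8 in GF LKO against GF WT. Over all genes this fit called 2730, 2733, 3148 and 4546 for ZT in the 4 groups, in that order (9.39%, 9.29%, 11.4% and 16.2%). The fits with the filter called 982, 744, 1795 and 3606 (7.06%, 5.3%, 13.6% and 26.7%). The fits without it tested more genes, 29085 against 13907 in SPF WT mice. DESeq2 called 2097, 2051, 2726 and 4403 (15.1%, 14.6%, 20.6% and 32.6%), and the cosine and sine 2087, 2971, 3523 and 4718 (15%, 21.2%, 26.7% and 35%). For the ZT differences over all genes, in the order GF WT against SPF WT, GF LKO against SPF LKO, SPF LKO against SPF WT and GF LKO against GF WT, the fits with the filter called 1, 7, 44 and 481 (0.0071%, 0.0492%, 0.305% and 3.48%). Those without it called 904, 1437, 1235 and 1641 (2.93%, 4.61%, 3.9% and 5.43%), and DESeq2 called 46, 322, 196 and 898 (0.326%, 2.26%, 1.36% and 6.5%).

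Leaving out 1 library gave 2 to 8 higher and 1 to 5 lower in GF WT against SPF WT, 5 to 7 and 2 to 3 in GF LKO against SPF LKO, 3 to 5 and 1 to 5 in SPF LKO against SPF WT, and 4 to 6 and 6 to 8 in GF LKO against GF WT. The 8 higher came without SPF WT ZT6 replicate 3, where 13.4% of all genes were called higher. The 1 lower in GF WT against SPF WT came without SPF WT ZT2 replicate 1 or SPF WT ZT14 replicate 3, and the 5 lower without SPF WT ZT10 replicate 3. Without SPF WT ZT6 replicate 3, SPF LKO ZT14 replicate 2 or SPF LKO ZT18 replicate 1, 5 genes were higher in SPF LKO against SPF WT. The 1 lower there came without SPF WT ZT6 replicate 3, where 10.9% of all genes were called lower. Leaving out a replicate number gave 0 to 1 ZT calls in SPF WT, 0 to 0 in SPF LKO, 0 to 6 in GF WT and 1 to 13 in GF LKO, and 0 to 1 for the ZT difference of GF LKO against GF WT. These fits hold fewer mice per ZT. Where no share of all genes is given for a fit that left out libraries, its count is not read as a result about these genes.

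The replicate block (ZT and replicate number, 18 blocks) called 4 and 3, 7 and 3, 4 and 1, and 6 and 7 genes in the 4 comparisons in the order above, and 0, 7, 3 and 14 for ZT. The shares of all genes were 16% and 19.5%, 19.4% and 19.4%, 14.1% and 13.1%, and 18.3% and 17.2%, and for ZT 7.06%, 3.66%, 13.5% and 26.6%. The labels tie no shared litter or day to a replicate number, and the deviations of same-numbered libraries correlated at -0.433 to 0.427 (median -0.029 over 108 pairs, 26 above 0.1), so the numbers were not taken to pair the mice. The difference of effects called 0 under every alternative run for it, and no log2 fold change called with all libraries changed sign under an alternative. Fold changes that were not called could: without SPF WT ZT6 replicate 3 that of Gbp2 in GF WT against SPF WT went from -0.25 to 0.36.

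Oas2, Oas3 and Oas1g had 79 counts or fewer per library, which limits the precision of their fold changes.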
